A study of Sus scrofa with 6 samples.

Results

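The nuclear genes for subunits of the respiratory chain and of ATP synthase were followed in 8-cell embryos of the pig (Sus scrofa). They were chosen by symbol alone, without use of any level. The symbols were those that begin with NDUFA, NDUFB, NDUFC, NDUFS or NDUFV, with UQCR, with ATP5, or with COX4 to COX8 and a further letter, together with SDHA, SDHB, SDHC, SDHD and CYC1, while the NDUFAF assembly factors were left out. This gave 70 of the 29874 genes in the table, with 37 in complex I, 4 in complex II, 2 in complex III, 10 in complex IV and 17 in complex V. NDUFA4 and its relative NDUFA4L2 were counted with complex IV, where the NDUFA4 protein is placed. ATP5S and ATP5SL carry the prefix but are not structural subunits. Complex III is represented by UQCR10 and UQCRB alone, and subunits with no row under these symbols were not analysed here.

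The knockdown group had 3 libraries, from embryos whose genotype is labelled LncT KD and whose treatment is an injection of siRNA into the cytoplasm. The control group had 3 libraries, with genotype and treatment both labelled Control. Neither the age, strain and number of the embryos in a library nor what the controls received is stated, and the p-values therefore measure the spread between these libraries, which may be technical. The labels and the table do not identify LncT, a long non-coding RNA, so its own level was not checked. The knockdown titles read siL and the columns SL, and the comparison rests on that match. Columns with the prefix ST fit no title, so if ST and not SL marked the siRNA against LncT, every value given for knockdowns would belong to a different siRNA.

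The respiratory chain passes electrons from NADH through complex I, or from succinate through complex II, to ubiquinone, then through complex III and cytochrome c to oxygen at complex IV. Complexes I, III and IV pump protons, and complex V, the ATP synthase, uses the gradient to make ATP. Complexes I, III, IV and V join nuclear subunits with a few encoded in the mitochondrial genome, whereas complex II, which is also an enzyme of the tricarboxylic acid cycle, is encoded by nuclear genes alone. Cleavage embryos carry mitochondria inherited from the egg and rely on them for most of their ATP, and nuclear transcripts at this stage are a mixture of maternal stores and transcripts of the embryo itself.

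Relative depth, as coverage per FPKM (fragments per kilobase of transcript, scaled to the mapped fragments of the library), was 6.29 to 9.41 in the knockdowns and 6.45 to 7.03 in the controls. Control 3 stood apart from the other controls. Over the 10417 genes tested, its Spearman correlation was 0.900 to 0.941 with the knockdowns and 0.611 and 0.655 with controls 1 and 2. Counts, medians and the tests of single genes that turn on it are therefore given with and without it. Of 15 markers of oocyte and early embryo, 14 had a mean of at least 1 FPKM, and ZSCAN4 was listed at 0. Their summed level was 1359, 1746 and 1781 FPKM in the knockdowns, against 2204, 2143 and 1334 FPKM in the controls, which is the same division of libraries. Controls 1 and 2 were the highest libraries for 6 of the 14 markers above 0 and the lowest for 2, or 42.9% and 14.3%, against 29.5% and 30.1% of all genes tested. Among these, singled out after their values were seen, GDF9, an oocyte growth factor, was at 240.9, 353.7 and 268.7 FPKM in the knockdowns and 520.8, 542.4 and 177.2 in the controls. KLF17, a transcription factor of the early embryo, was at 47.3, 46.7 and 54.1 FPKM in the knockdowns and 0, 17.7 and 52.9 in the controls. DPRX, a homeobox gene, was at 31.4, 23.3 and 34.7 FPKM in the knockdowns and 0, 0.62 and 26.1 in the controls. The part of these markers in the results on respiratory chain genes was not tested. Of 13 cumulus and granulosa markers found, CYP11A1, INHA and FOXL2 were listed at 0 throughout, while INHBA, VCAN and STAR had a mean of at least 1 FPKM. INHBA was the highest by mean, at 4.34, 5.66 and 5.52 FPKM in knockdowns and 7.87, 6.28 and 4.80 in controls. The list summed to 9.11 to 14.0 FPKM in knockdowns and 9.65 to 10.8 FPKM in controls. The sperm markers PRM1, PRM2, TNP1 and ODF1 were listed at 0 in every library. ODF2 was at 1.3, 2.4 and 2.0 FPKM in knockdowns and 2.0, 1.2 and 2.9 in controls. AKAP4 was at most 0.58 FPKM in knockdowns and 0.67 in controls. Blood markers summed to at most 1.10 FPKM in knockdowns and 1.07 FPKM in controls.

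Nuclear respiratory chain genes stood at higher levels in the knockdowns and in control 3 than in controls 1 and 2. Summed over all 70 genes, the level was 1362, 1917 and 1729 FPKM in knockdowns 1, 2 and 3, against 812.8, 558.3 and 2922 FPKM in controls 1, 2 and 3. The knockdown libraries thus lay above controls 1 and 2 and below control 3, so that the groups overlapped. The ratio of the group means was 1.17, and that of the knockdown mean to the mean of controls 1 and 2 was 2.44. As a share of all TPM (transcript abundance rescaled to one fixed total in every library), the genes took 0.207%, 0.355% and 0.307% in the knockdowns, against 0.166%, 0.112% and 0.459% in the controls. In bulk libraries, fewer cells with a transcript and less of it per cell cannot be told apart.

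**Figure D1:**
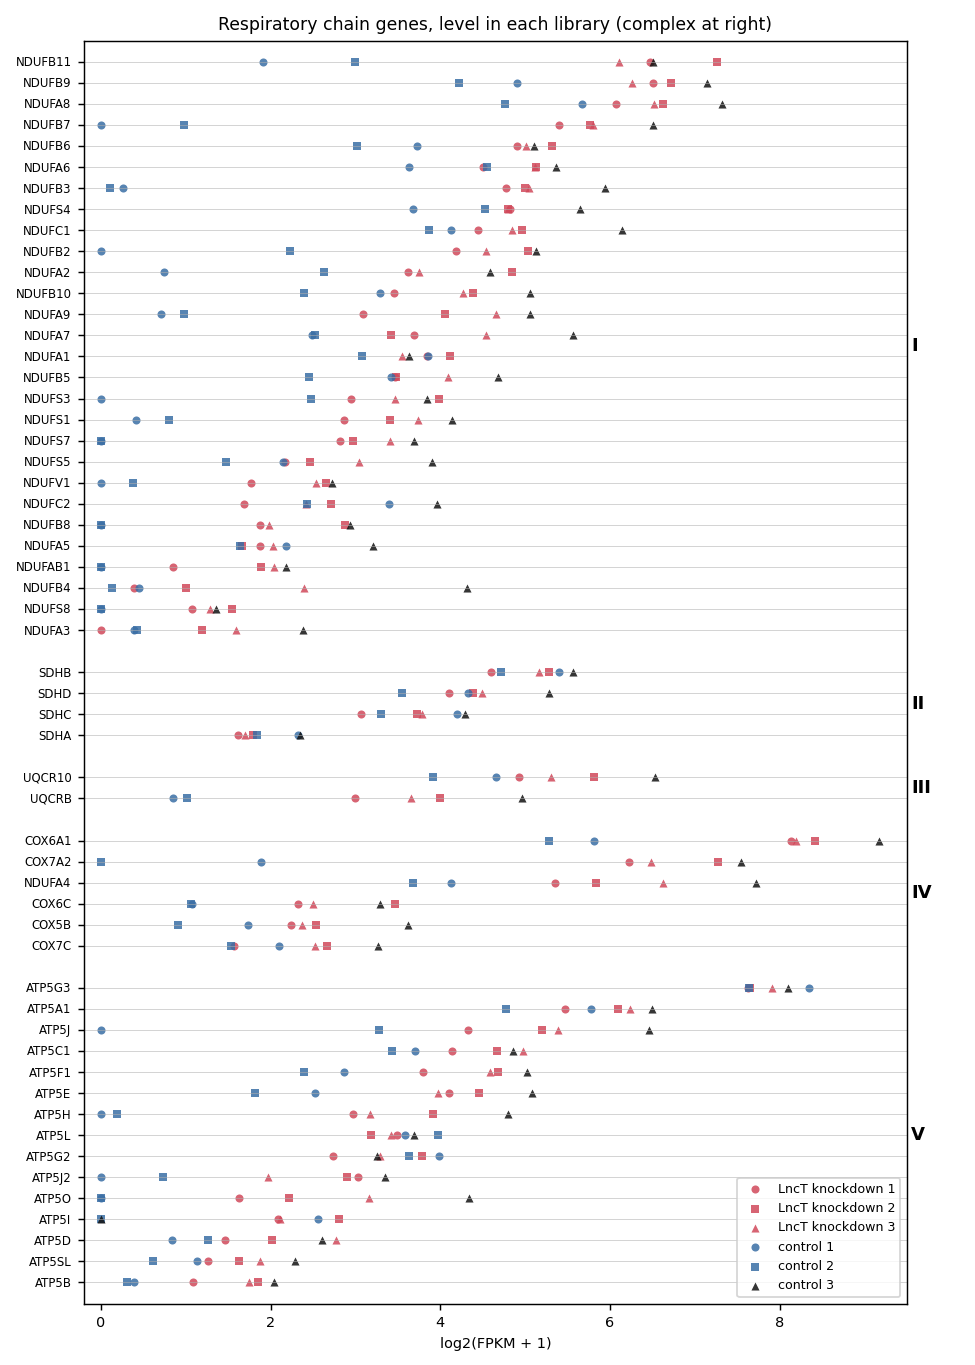
Level of 55 of the 56 tested genes as log2(FPKM + 1), grouped by complex and ordered by the knockdown mean, with 1 point per library. For 39 of the 55 genes, controls 1 and 2 are both to the left of the 3 knockdowns and control 3, and for 42 control 3 is the highest of the 6 libraries.

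Averaged over 6 libraries, 56 of the 70 genes reached 1 FPKM, and these were tested with limma on log2(FPKM + 1), as knockdown minus control. No gene passed the adjusted threshold of 0.05, as for all genes, where 0.0% passed in either direction. With array weights, an alternative that gave control 3 little weight, 35 of the 56 passed, all of them higher. Of the 10417 genes tested, 3405 then passed, both directions together. Before adjustment, 2 genes had a p under 0.05 and were higher in knockdowns and 0 were lower, or 3.57% and 0.0% of those tested, while 3.6% of all genes tested were higher and 0.586% lower at that level. The log2 change was above 0 for 44 of the 56 genes, or 78.6%, against 50.4% of all genes tested. Their median log2 change was 0.71, beside 0.00 for all genes tested. It was 0.31 with a pseudocount of 5 and 0.91 with one of 0.1, and 0.41 over the genes above 0 in any library when no filter was used. The median was 1.26 without control 3, 0.34 without control 1, 0.35 without control 2 and 0.47 without knockdown 3. No gene was higher in every knockdown than in every control, where 4.38% of all genes were, and 2 genes, SDHA and ATP5L, were lower in every knockdown, or 3.57% against 2.86% of all genes.

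Without control 3, 32 of the 56 genes passed, all of them higher in knockdowns. This was 57.1% of those tested, whereas 20.2% of all genes tested passed higher and 7.22% lower in the same fit. Before adjustment 37 were higher at a p under 0.05, or 66.1%, against 26.1% of all genes, and 0 were lower, against 17.1%. The log2 change was then above 0 for 48 genes, or 85.7%, where 48.1% of all genes had such a change. Every knockdown then lay above both remaining controls for 40 genes, or 71.4%, against 31.3% of all genes, and below them for 2 genes, or 3.57%, against 30.5%. Some of the 56, such as NDUFS8 and ATP5B, reached the filter only through the libraries where they were high. Listed at 0 in controls 1 and 2 and above 0 in the other 4 libraries were 6 of the 56 and 104 of the 10417. Counts and medians over the 56 are therefore descriptions, not support for a difference. Set against control 1 alone, every knockdown lay above it for 41 genes, or 73.2%, where 37.1% of all genes did, and below it for 8 genes, or 14.3%, where 39.8% did. Set against control 2 alone, the numbers were 47 genes above, or 83.9% against 37.8%, and 2 genes below, or 3.57% against 38.2%. Set against control 3 alone, every knockdown lay below it for 44 genes, or 78.6%, where 25.5% of all genes did, and above it for ATP5I only, where 31.9% of all genes did. The direction of the difference thus turned with the control library used as comparison. Within groups, the median SD on the log2(FPKM + 1) scale was 0.43 in knockdowns and 1.32 in controls for these genes, against 0.31 and 0.57 for all genes tested.

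**Figure D2:**
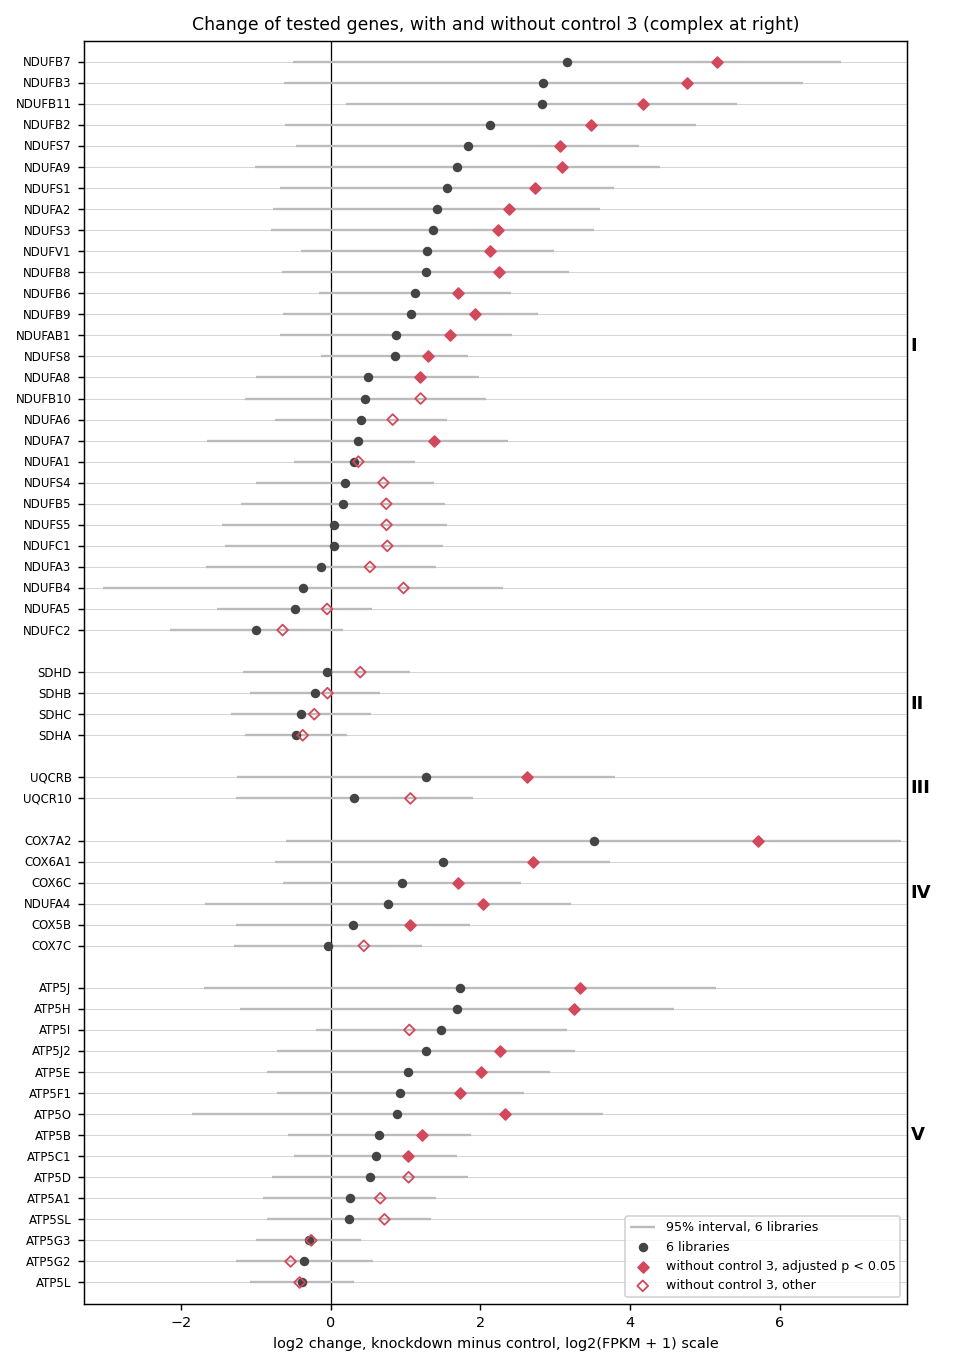
Log2 change of 55 of the 56 tested genes, as the knockdown mean minus the control mean of log2(FPKM + 1), by complex. Grey points and lines are the value and 95% interval with 6 libraries, and diamonds are the value without control 3, filled for the 31 genes with a limma adjusted p under 0.05.

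The catalytic core of complex I has 7 nuclear subunits, which hold the flavin, the iron-sulfur clusters and the quinone site. Of these, 6 reached the filter, some of them only through the libraries where they were high, so no count or median over them is given. NDUFS8, an iron-sulfur subunit, was at 1.11, 1.91 and 1.43 FPKM in the knockdowns, against 0, 0 and 1.55 in the controls. Its mean over the 6 libraries only just reached 1 FPKM, and control 3 was within the knockdown range. NDUFS7, which carries the last cluster before ubiquinone, was at 6.03, 6.81 and 9.64 FPKM in knockdowns and at 0, 0 and 12.0 in controls.

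In further core subunits, controls 1 and 2 were also the lowest libraries. NDUFS1, the largest of them, was at 6.27, 9.64 and 12.3 FPKM in the knockdowns, against 0.33, 0.75 and 16.6 in the controls. NDUFV1, which binds NADH and flavin, was at 2.42, 5.29 and 4.77 FPKM, against 0, 0.29 and 5.58. For both, control 3 was the highest of the 6 libraries. NDUFS3 was at 6.72, 14.9 and 10.03 FPKM in knockdowns and at 0, 4.56 and 13.3 in controls, with control 3 between knockdowns. NDUFS3, NDUFS7, NDUFS8 and NDUFV1 were listed at 0 in control 1. NDUFV2 stayed below the filter, at 0, 0 and 0.49 FPKM in knockdowns and 1.26, 0 and 1.44 in controls.

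Accessory subunits of complex I surround the core and are needed for its assembly and stability. Of 23 tested, some also reached the filter only through the libraries where they were high, so no count or median is given. The largest log2 changes among the 23 were of genes for the membrane arm. NDUFB11 (chromosome X, 41770929 to 41773879, Sscrofa11.1) was at 88.1, 152.9 and 68.0 FPKM in the knockdowns, against 2.74, 6.96 and 89.7 in the controls. Its log2 change was 2.82 ± 1.11 (SE; limma adjusted p = 0.775), and control 3 lay inside the knockdown range. Without control 3 the log2 change was 4.17 (limma adjusted p = 0.00082). NDUFB7 was at 41.1, 53.4 and 54.9 FPKM in knockdowns, and at 0, 0.97 and 90.1 in controls. NDUFB3 was at 26.5, 30.9 and 31.9 FPKM in knockdowns, and at 0.19, 0.08 and 60.3 in controls. For NDUFB7 and NDUFB3, controls 1 and 2 were at or near 0, while control 3 was above every knockdown.

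NDUFB6 showed a smaller step of the same kind, at 28.9, 39.0 and 31.2 FPKM in knockdowns and 12.2, 7.12 and 33.5 in controls. NDUFB9 was at 90.1, 104.6 and 75.5 FPKM in knockdowns and 29.0, 17.6 and 141.0 in controls. NDUFA8, on the outer face of the membrane arm, was at 66.4, 97.8 and 91.0 FPKM in knockdowns and 49.8, 26.3 and 158.8 in controls. All 3 were well expressed in every library, and NDUFB6, NDUFB9 and NDUFA8 passed without control 3, with log2 changes of 1.70, 1.93 and 1.19 (limma adjusted p = 0.00631, 0.00331 and 0.0355). Not every accessory gene had this order. NDUFC2 was at 2.21, 5.52 and 4.33 FPKM in knockdowns and 9.52, 4.39 and 14.6 in controls, a log2 change of -1.0 (95% interval -2.15 to 0.16) that was -0.65 without control 3. NDUFA5 was at 2.66, 2.17 and 3.07 FPKM in knockdowns and 3.53, 2.1 and 8.25 in controls. NDUFA1, on chromosome X, was at 13.3, 16.3 and 10.7 FPKM in knockdowns and 13.5, 7.45 and 11.4 in controls. Control 2 was its lowest library, and controls 1 and 3 lay inside the knockdown range.

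Complex II did not show the gap between controls 1 and 2 and the other libraries. Its 4 genes had log2 changes below 0 and a median of -0.31, which was -0.13 without control 3 and turned to 0.06 with array weights, and 0 of 4 passed in either fit. SDHA (chromosome 16, 79838442 to 79862956), the flavoprotein that oxidises succinate, was at 2.06, 2.47 and 2.25 FPKM in the knockdowns, against 3.98, 2.59 and 4.10 in the controls. All knockdowns were below all controls, with a log2 change of -0.47 (95% interval -1.14 to 0.21, limma adjusted p = 0.775), or -0.38 without control 3 (limma adjusted p = 0.31). SDHB, the iron-sulfur subunit, was at 32.0 ± 7.76 FPKM in knockdowns and 37.7 ± 11.0 in controls (SD, n = 3). SDHC and SDHD, the membrane anchors, were at 10.8 ± 2.95 and 19.2 ± 2.73 FPKM in knockdowns and at 14.9 ± 5.25 and 22.6 ± 14.0 in controls (SD, n = 3). For SDHB, SDHC and SDHD the groups overlapped.

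For complex III, UQCR10, a small subunit, was at 29.4, 55.2 and 38.7 FPKM in knockdowns and 24.2, 14.1 and 91.5 in controls. UQCRB, which contacts the quinone site, was at 6.98, 14.9 and 11.6 FPKM in knockdowns and 0.80, 1.02 and 30.3 in controls. Both had controls 1 and 2 below and control 3 above every knockdown. UQCRB passed without control 3 at a log2 change of 2.62 (adjusted p = 0.00187 by limma), and UQCR10 had 1.06 (limma adjusted p = 0.0602).

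Complex IV had the widest spread within groups of the 5 complexes, with a pooled SD of 1.62 for the log2 of its summed FPKM. That spread lay mainly in the controls, where the sum was 81.5, 53.7 and 1000.2 FPKM, against 403.3, 572.6 and 493.5 in the knockdowns. COX6A1 (chromosome 14, 40408600 to 40410810), the form of subunit VIa found outside muscle, was the most abundant of the 70 genes in all knockdowns, at 279.6, 340.2 and 292.7 FPKM, against 55.0, 38.0 and 575.2 in the controls. COX7A2 (chromosome 1, 90696746 to 90703407) was at 73.5, 153.6 and 88.5 FPKM in knockdowns and at 2.70, 0 and 185.2 in controls. NDUFA4 was at 39.9, 56.3 and 97.5 FPKM in knockdowns and 16.5, 11.8 and 209.9 in controls. In each case controls 1 and 2 lay below and control 3 above every knockdown. With 6 libraries the log2 changes of COX6A1 and NDUFA4 were 1.49 ± 0.95 and 0.76 ± 1.04 (SE), neither past the threshold. Without control 3 they were 2.70 and 2.04 (limma adjusted p = 0.00047 and 0.00884). COX7A2 was listed at 0 in control 2, and its log2 change with 6 libraries depended on the pseudocount, at 4.75 with 0.1, 3.52 with 1 and 2.44 with 5. COX6C and COX5B, structural subunits at lower levels, passed without control 3 too, and COX7C, at 1.98, 5.32 and 4.75 FPKM in knockdowns and 3.27, 1.89 and 8.63 in controls, did not.

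The peripheral stalk, which holds the catalytic head of complex V in place, had 4 tested genes, of which 3 were listed at 0 in control 1, so no median is given. Among them ATP5J (chromosome 13, 189281429 to 189290234), coupling factor 6, was at 19.1, 35.7 and 40.8 FPKM in knockdowns and at 0, 8.69 and 86.9 in controls. ATP5O, the protein that confers oligomycin sensitivity, was at 2.08, 3.65 and 7.96 FPKM in knockdowns and 0, 0 and 19.2 in controls. In both, control 3 was the highest of the 6 libraries and control 1 was at 0.

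The catalytic head, F1, had 5 tested genes. ATP5B among them reached the filter only through the libraries where it was high, so no count or median is given. ATP5A1, the alpha subunit, was at 43.3, 67.4 and 74.4 FPKM in knockdowns and 53.7, 26.4 and 89.5 in controls, with control 1 inside the knockdown range. ATP5C1, the gamma subunit that turns in the head, was at 16.6, 24.5 and 30.6 FPKM in knockdowns and 12.0, 9.81 and 27.9 in controls. The beta subunit gene ATP5B was far lower, at 1.13, 2.61 and 2.34 FPKM in knockdowns and 0.31, 0.23 and 3.12 in controls.

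The c ring is the rotor in the membrane. ATP5G3 (chromosome 15, 81091037 to 81094297) was at 196.2, 199.6 and 240.6 FPKM in knockdowns and 323.8, 198.7 and 273.0 in controls, so that the groups overlapped (log2 change -0.30, 95% interval -1.0 to 0.40, and -0.26 without control 3). It made up 14.4%, 10.4% and 13.9% of the summed FPKM of the 70 genes in the knockdowns, against 39.8%, 35.6% and 9.34% in the controls, and was the most abundant of them in controls 1 and 2. ATP5G2 was at 5.66, 12.7 and 8.79 FPKM in knockdowns and 14.9, 11.4 and 8.57 in controls. The ATP5G genes encode the same mature c subunit behind different import sequences, and ATP5G3 held 93.8% to 97.0% of their summed FPKM in knockdowns and 94.5% to 96.7% in controls.

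Small membrane subunits of complex V varied singly. ATP5L, subunit g, was at 10.2, 8.08 and 9.67 FPKM in knockdowns and 11.0, 14.7 and 11.9 in controls, a log2 change of -0.39 (95% interval -1.08 to 0.30, limma adjusted p = 0.775), or -0.42 without control 3 (limma adjusted p = 0.255). Its groups did not overlap, except under median-of-ratios scaling, where they did. ATP5I, subunit e, was at 3.24, 5.97 and 3.30 FPKM in knockdowns and 4.90, 0 and 0 in controls, and was the gene for which control 3 lay below every knockdown.

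**Figure D3:**
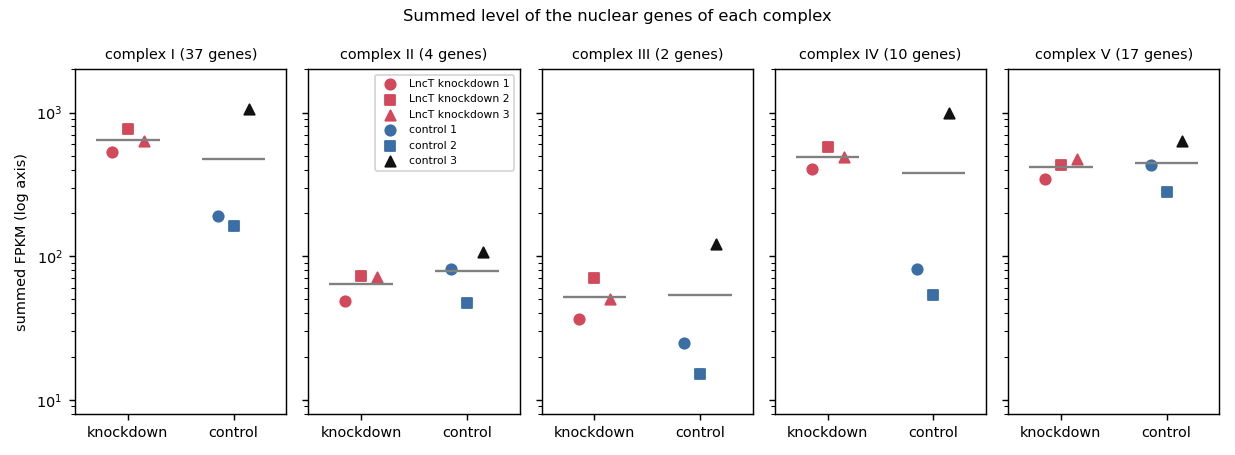
Summed FPKM of the nuclear genes of each complex in each library, on a log axis, with knockdowns left and controls right and a line at each group mean. Controls 1 and 2 lie below every knockdown for complexes I, III and IV, while for complexes II and V the groups interleave and control 3 is the highest library throughout.

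The summed FPKM of complex I was 10.8, 10.6 and 8.90 times that of complex II in the knockdowns, and 2.34, 3.42 and 9.93 times in the controls. For complex IV the ratio was 8.25, 7.91 and 6.90 in the knockdowns, against 0.998, 1.13 and 9.35 in the controls. For complex V, whose sum is mostly ATP5G3 in controls 1 and 2, it was 7.06, 5.97 and 6.66 in the knockdowns and 5.31, 5.89 and 5.90 in the controls. For complex III it was 0.744, 0.969 and 0.703 in the knockdowns, against 0.306, 0.319 and 1.14 in the controls. Control 3 lay within the knockdown range for complex I, above it for complexes III and IV and below it for complex V. The order of the 56 genes by level gave Spearman correlations of 0.946 to 0.968 among knockdowns, 0.901 to 0.951 between control 3 and knockdowns, and 0.492 and 0.616 between control 3 and controls 1 and 2. These are across genes, which are not independent replicates.

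Absence of signal in controls 1 and 2 was part of the pattern. Of the 70 genes, 7, 4 and 4 were listed at 0 in the knockdowns, against 20, 17 and 6 in the controls. Of the 56 tested genes, 1.79%, 0.0% and 0.0% were listed at 0 in the knockdowns and 23.2%, 14.3% and 1.79% in the controls, beside 0.298% to 0.605% and 0.403% to 3.93% of all genes tested. An exact 0 can be a failed estimate in such a table, which was not tested here. Ratios against it are therefore not given, and fitted log2 changes of such genes depend on the pseudocount. Genes listed at 0 in controls 1 and 2 and above 0 in the other 4 libraries included ATP5O, NDUFA11, NDUFA13, NDUFAB1, NDUFB8, NDUFS7 and NDUFS8.

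The 14 genes below the filter were ATP5G1, ATP5S, COX6B, COX7A1, COX8H, NDUFA10, NDUFA11, NDUFA12, NDUFA13, NDUFA4L2, NDUFB1, NDUFS6, NDUFV2 and NDUFV3, at 0 to 2.70 FPKM. They include the forms linked to particular tissues or states. COX7A1, the form of heart and skeletal muscle, was at 0 to 0.16 FPKM in knockdowns and 0 to 0.34 in controls. NDUFA4L2, induced by low oxygen in human and mouse cells, was at most 0.10 FPKM in knockdowns and 0.05 in controls, and COX8H was listed at 0 in every library.

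The partners of these subunits were compared in the same libraries. Assembly factors, which build the complexes but are not part of them, had 24 tested genes of 30 found and 49 listed. Of the 24, 16 had a log2 change above 0, or 66.7%, against 50.4% of all genes tested. Their median log2 change was 0.25, or 0.86 without control 3, when 7 passed higher and 0 lower. That was 29.2% higher, against 20.2% of all genes in that fit, where 7.22% passed lower. The genes named from this and the following lists are the 2 with the smallest p in each, not typical ones. NDUFAF2, a complex I factor, was at 51.0, 40.0 and 30.0 FPKM in knockdowns and 1.18, 0.33 and 42.6 in controls. SDHAF1, which helps insert iron-sulfur clusters into SDHB, was at 3.52, 9.75 and 10.4 FPKM in knockdowns and 0.08, 0.16 and 6.27 in controls, although SDHB itself had no such gap. In both, controls 1 and 2 were the lowest libraries, and without control 3 both passed (limma adjusted p = 0.0002 and 0.00305).

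Regulators of nuclear respiratory genes and of mitochondrial transcription had 17 tested genes of 24 listed, with a median of 0.72. Of the 17, 13 were above 0, or 76.5%, against 50.4% of all genes tested. Without control 3 the median was 0.96, and 9 passed higher and 0 lower, or 52.9% and 0.0% against 20.2% and 7.22% of all genes. NRF1, a transcription factor that binds many promoters of respiratory genes, was at 4.90, 3.40 and 2.65 FPKM in knockdowns and 0.10, 1.46 and 2.56 in controls, with no overlap (limma adjusted p = 0.775, or 0.0326 without control 3). CREB1 was at 1.78, 2.15 and 1.31 FPKM in knockdowns and 0.36, 0.44 and 1.28 in controls, also without overlap (limma adjusted p = 0.775, or 0.0312 without control 3). For NRF1 and CREB1, control 3 lay only just below the lowest knockdown. Of the 17 genes, 3 were higher in every knockdown than in every control and 0 lower, where 4.38% and 2.86% of all genes were.

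For mobile carriers and ubiquinone synthesis, 4 of 14 tested genes were above 0, or 28.6%, against 50.4% of all genes tested. The median was -0.14, or -0.24 without control 3, when 3 passed higher and 1 lower. These were 21.4% and 7.14%, near the 20.2% and 7.22% of all genes. COQ7, an enzyme of ubiquinone synthesis, was at 13.2, 12.0 and 17.3 FPKM in knockdowns and 36.4, 22.0 and 28.2 in controls. COQ10B, which binds ubiquinone, was at 354.0, 408.1 and 362.1 FPKM in knockdowns and 86.3, 83.4 and 345.8 in controls. Neither pair of groups overlapped, and neither passed with 6 libraries (limma adjusted p = 0.775). Without control 3, COQ10B had an adjusted p of 0.0006 and COQ7 one of 0.0531 by limma. The 13 subunits encoded by the mitochondrial genome summed to 179906 ± 65940 FPKM in knockdowns and 145336 ± 70835 FPKM in controls (SD, n = 3). By library the sum was 252227, 123122 and 164371 FPKM in knockdowns and 90665, 119985 and 225359 FPKM in controls. ATP6 and ATP8 together made up the larger part of it in every library. They were at 160519, 69198 and 105248 FPKM in knockdowns and 50067, 71462 and 141730 FPKM in controls. Of the 13, 12 had a log2 change above 0, or 92.3%, against 50.4% of all genes tested. The median log2 change of the 13 was 0.23, or 0.63 without control 3. In that fit 1 of 13 passed higher, or 7.69%, against 20.2% of all genes.

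**Figure D4:**
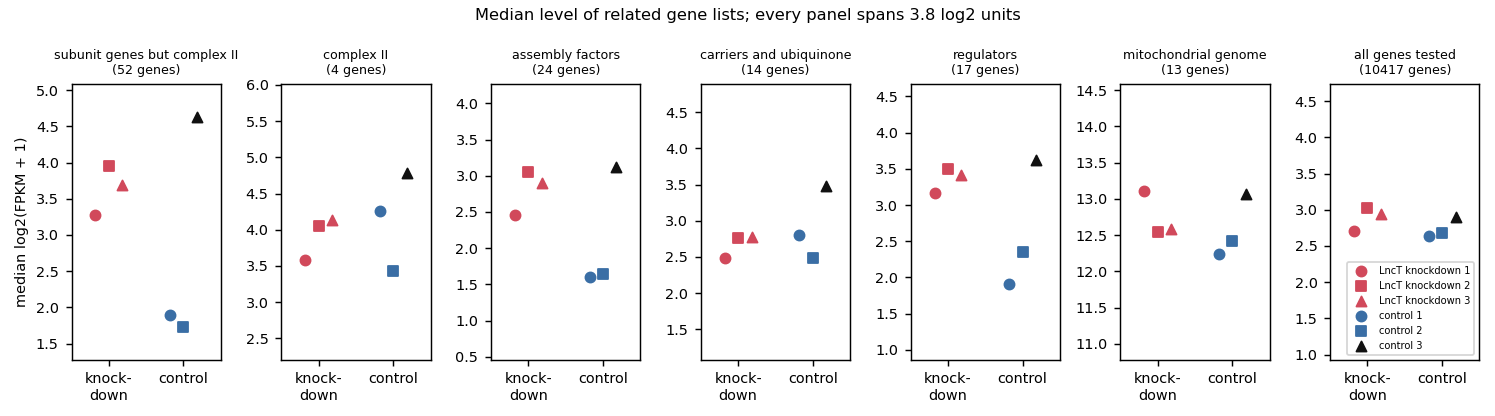
Median log2(FPKM + 1) of each gene list in each library, knockdowns left and controls right, with the same span of 3.8 log2 units in every panel. Subunit genes outside complex II, assembly factors and regulators are lowest in controls 1 and 2, complex II and the carriers interleave, and the mitochondrial genome and all genes tested show a smaller gap.

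Transcript assignment and shared reads limit single values. Of the 70 genes, 41 have a single transcript row and 29 have several, and in 21 of the 29 the same row led in every library where the gene was above 0. NDUFB3 has 13 rows, of which 1 carried the reads of knockdowns 1 and 3 and of control 3, another those of knockdown 2, and a further one the traces in controls 1 and 2, so its sum is firmer than any row. One of the rows of NDUFA4 is annotated as a pseudogene and held 15.9, 13.2 and 35.6 FPKM in the knockdowns and 3.49, 3.40 and 66.9 in the controls. Without that row the log2 change of NDUFA4 was 0.62, against 0.76 with it. The spans of 21 of the 70 genes overlap another annotated gene, SDHA with CCDC127, ATP5L with a long non-coding RNA, NDUFB11 with RBM10 and ATP5J with GABPA among them. The sources used here do not state the strand setting of the counting, so reads of such pairs cannot be told apart.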

How the data were processed

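Messenger RNA of pig 8-cell embryos was sequenced from SMARTer libraries, per the labels' protocols. The submitters' processing notes list StringTie 2.1.7, Bowtie2 2.3.5, cutadapt and the build Sscrofa11.1, without roles. How strand and multiply mapped reads were handled is not given in the sources used. The deposited table has 81774 transcript rows. Per the file headers, it holds FPKM, TPM and coverage (signal, the mean read depth of a transcript) as the authors deposited them. Read counts were not used, so depth in reads is unknown. Another 9 value columns, with the prefix ST, fit no sample title and were left out.

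FPKM was summed per gene, with 1758 rows whose name cell held a number named by their identifier. The 10417 genes averaging 1 FPKM or more over 6 libraries were tested two-sided on log2(FPKM + 1) by limma 3.58.1 (R 4.3.3), fitted with group alone and a mean-variance trend, and p-values were adjusted by the Benjamini-Hochberg method at 0.05 over all of them. Fold changes on this scale understate those of weakly expressed genes. No p was computed for the list or a complex, and values of lists are descriptions. Coordinates are RefSeq's for Sscrofa11.1.

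The members, lists and tests were chosen with earlier results of these data known. Named genes were, in each complex, the 4 with the highest mean, the 8 with the smallest p in each direction, those whose groups did not overlap and related paralogues, 32 in all, and from each other list the 2 with the smallest p; further genes were chosen after their values were seen, to complete a complex. Alternatives were TPM, median-of-ratios scaling, quantile normalization, pseudocounts of 0.1 and 5, a filter at 5 FPKM or none, no trend, array weights, the replicate number as a block and each library left out. Tables and plots were made in Python 3.11.15 with matplotlib 3.10.9, numpy 2.4.6 and pandas 2.3.3. The values of 1 gene that the rule named are not reported here, and it is not drawn in the plots of single genes, although it is counted in the totals.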

Additional observations from a re-analysis of the deposited data

How the results depend on the processing

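The number of respiratory chain genes that passed was 0 with 6 libraries under every alternative but array weights. That alternative passed 35 higher and 0 lower, beside 3405 of the 10417 genes tested, both directions together. It gave control 3 a weight of 0.113 against 0.789 to 2.31 for the others. With 1 library left out, respiratory chain genes that passed ran from 0 to 32 higher. All genes, both directions together, ran from 0 to 2854, and the highest values of both came without control 3. Genes above every control ran from 0 to 40, the 40 being 71.4% against 31.3% of all genes, without control 3. Genes below every control ran from 2 to 7, with 7 without control 2, where the share of all genes was not computed. Leaving out a control can raise such counts for all genes too, so the 7 is not read as a trait of these genes. Genes below every control numbered 1 under median-of-ratios scaling and with a mean of at least 5 FPKM, where SDHA was not tested. The median log2 change of 0.71 stayed above 0 in all alternatives, at 0.31 with a pseudocount of 5, 0.41 with no filter, 0.47 under quantile normalization, which moved the median of all genes to -0.17, 1.38 with array weights, and 0.34 to 1.26 with 1 library left out. The sum for complex III had a ratio of knockdown to control means of 0.97, or 1.01 with TPM. Directions turned for SDHB (0.13) and SDHD (0.52) with array weights. With 1 library left out, the log2 change of SDHD ran from -0.48 to 0.39, turning without knockdown 1 or control 3. Without control 2 it turned for ATP5A1, UQCR10 and NDUFA8, whose ranges were -0.20 to 0.66, -0.24 to 1.06 and -0.085 to 1.19. The labels do not pair the replicate numbers. Deviations from the group means correlated at 0.085, 0.063 and 0.226 for numbers 1, 2 and 3, and at -0.189 to 0.111 between different numbers. Knockdown 1 correlated best with control 2. With so few libraries these values cannot decide whether the numbers pair them. With the number as a replicate block, 0 genes passed. Depth in reads is unknown, which limits the lowest genes.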

Other observations

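The 70 genes were short. Their median span in the annotation was 7634 bases, against 32937 for the 8347 protein-coding genes tested, and they lie on 18 chromosomes. Of the 56 tested, 41 lay in the shortest of 4 equal groups of tested genes by span. Over all genes of that group the median log2 change was 0.25 with 6 libraries and 0.46 without control 3, and in the longest group it was -0.14 and -0.32. The respiratory chain genes of the shortest group had medians of 0.87 and 1.51, and the 11 in the next group 0.49 and 1.03, where all genes had 0.05 and 0.09. The part of gene span in the difference between libraries was not tested.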
